A study of Sus scrofa with 15 samples.

Results

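The transition from late pregnancy to the first day of lactation was followed in mammary tissue of 3 sows by comparing the 3 libraries labelled 1 day after parturition with the 3 labelled 14 days to parturition. These are 6 of 15 libraries of the series, which also covers 10, 6 and 2 days before parturition, and they were chosen by their time label alone. Each sow gave 1 biopsy at each time point, so the groups share their animals. By the study's methods the sows were under anesthesia for a biopsy and received Banamine at and after it. The biopsy at 14 d prepartum was the first of the series and that at 1 d postpartum the last. Earlier biopsies with their drugs and time therefore cannot be told apart. The sows were second-parity crosses of Danish Landrace and Yorkshire. Each of the 3 was fed another diet (alfalfa meal with trioctanoate, sugar beet pulp with palm fatty acid distillate, or alfalfa meal with soybean oil), so sow and diet cannot be told apart. By the study's methods these diets began late in gestation, after the approximate day of the biopsy at 14 d prepartum, so the change of diet and time cannot be told apart either. They were also the animals with a high colostrum yield in a larger trial. The biopsies hold all cell types of the gland, and in such bulk tissue fewer cells of a type and less RNA per cell cannot be told apart.

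Late in pregnancy the mammary epithelium of the sow completes its growth, and around parturition it begins to release colostrum and then milk. Milk-secreting cells make caseins and whey proteins on the rough endoplasmic reticulum, pass them through the Golgi apparatus, where lactose is also made, and enclose fat droplets in a membrane that carries butyrophilin and xanthine dehydrogenase. Prolactin, acting through its receptor, JAK2 and STAT5, is the best known inducer of milk protein genes, while progesterone holds secretion back until it falls at term. Colostrum is rich in immune proteins that protect the newborn.

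The total count per library was 16862026 to 19292238 at 14 d prepartum and 10782343 to 15744454 at 1 d postpartum, so the later libraries were shallower. The RNA integrity number of each library was taken by sow and day from the study's summary of RNA extraction. It was higher in all 3 libraries of 1 d postpartum than in all 3 of 14 d prepartum. Within these 6 libraries RNA quality and time cannot be told apart. Luminal epithelial markers fitted the labelled tissue, with 8 of 11 markers in the files and a summed level of 1801 to 2163 CPM (counts scaled to the size of the library, corrected by TMM) at 14 d prepartum and of 2538 to 2963 at 1 d postpartum. Skin keratins stood out in 1 library. KRT1, a keratin of the outer skin, had 333 CPM in sow 2 at 14 d prepartum and at most 0.485 CPM in the other 5 libraries, and KRT10 had 207 CPM there and at most 1.99 CPM elsewhere, both picked after their values were seen.

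Counts concentrated in few genes after parturition. The 10 highest genes of a library held 19.5%, 17.1% and 16.6% of its counts in sows 1, 2 and 3 at 14 d prepartum, and 53.8%, 30.5% and 33.6% at 1 d postpartum. The mean share went from 17.7% ± 1.59 to 39.3% ± 12.7 (SD, n = 3 for each), a difference of 21.6 percentage points. All 3 later libraries lay above all 3 earlier ones, and the exact two-sided permutation test gave p = 0.1, which is its lower limit for 3 libraries against 3. It treats the 6 libraries as independent and leaves out their pairing by sow. The gain was 34.3 points in sow 1, 13.4 in sow 2 and 17.1 in sow 3. Sow 1 was far above the other animals after parturition, while the sows lay between 16.6% and 19.5% at 14 d prepartum.

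The number of genes needed to collect 50% of the counts moved in the opposite direction. It was 270, 361 and 336 genes at 14 d prepartum in sows 1, 2 and 3, and 7, 99 and 87 genes at 1 d postpartum (exact permutation p = 0.1). In sow 1, 7 genes therefore carried as much of the library as all others together. The first 25% of counts lay on 23 to 32 genes before and on 2 to 7 genes after parturition, and 75% of counts lay on 1827 to 2021 and on 362 to 1243 genes.

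**Figure D1:**
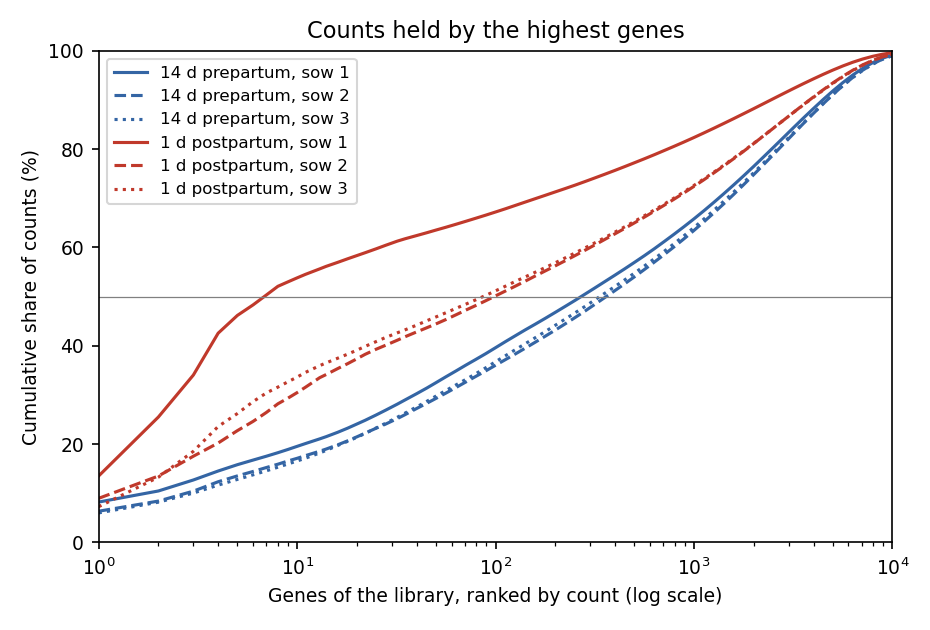
Cumulative share of counts (%, vertical axis) against the number of genes ranked by count (horizontal axis, log scale) in each of the 6 libraries, with a grey line at 50%. From the 2 highest genes on, the curves of 1 d postpartum (red) lie above those of 14 d prepartum (blue), while at the highest gene alone they overlap, and the curve of sow 1 at 1 d postpartum crosses the grey line at 7 genes.

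Detection of the remaining genes fell only slightly. After thinning every library to the same total of 10782343, at least 10 counts were found for 13012, 13276 and 13315 genes at 14 d prepartum and for 11799, 12742 and 12829 genes at 1 d postpartum, a mean difference of -744 genes (exact permutation p = 0.1). When the 17 genes among the 10 highest of any library were set aside before thinning, the numbers were 12069 to 12318 and 11782 to 12221, which overlapped, with a mean difference of -199 genes and an exact permutation p of 0.2. The trimmed-mean scaling factors (TMM) fell in the same way, from 1.15, 1.24 and 1.22 to 0.545, 0.884 and 0.87. A level given below in CPM is relative to the bulk of the genes by these factors, whereas a share of counts is not.

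The 4 named milk protein genes took up much of the additional share. Of the 17 genes that were among the 10 highest in any of the 6 libraries, 11 have a name in the tables used here. Together the named genes CSN1S1, CSN2 and CSN3, which encode alpha-S1-, beta- and kappa-casein, and LALBA, which encodes alpha-lactalbumin, held 2.29%, 2.33% and 1.84% of counts at 14 d prepartum. At 1 d postpartum they held 27.7%, 8.37% and 12.5%. CSN1S1 was already abundant before parturition, at 1.82%, 1.91% and 1.61% of counts, and reached 8.53%, 4.54% and 5.26%. CSN2 went from 0.366%, 0.27% and 0.131% to 13.5%, 1.82% and 5.05%, the widest spread between sows of the named caseins. CSN3 went from 0.103%, 0.149% and 0.0976% to 3.61%, 1.88% and 1.76%.

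The gene with the largest gain in share has no name in the tables used here. ENSSSCG00000009263 went from 0.00678%, 0.0026% and 0.00114% of counts to 12%, 4.03% and 6.0%. In the annotation of Sscrofa10.2 it lies on chromosome 8 from 148310617 to 148326957, between CSN1S1 (148201997 to 148222501) and CSN3 (148440837 to 148444886), with CSN2 from 148228429 to 148236984. Second in gain among the unnamed genes was ENSSSCG00000028525 on chromosome 2 from 44078431 to 44082946, which went from 0.0317%, 0.0313% and 0.0237% to 1.76%, 2.68% and 2.64%. It differed from the caseins in that the sows were alike after parturition, with 32342, 30341 and 30327 CPM. Its mean was 1130 CPM at 2 d prepartum, so most of its increase fell between 2 d prepartum and 1 d postpartum.

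Sow 2 did not rise further after 2 d prepartum in several milk protein genes. Its level of CSN1S1 was 81254 CPM at 2 d prepartum and 51333 CPM at 1 d postpartum, that of CSN2 was 97395 and 20593 CPM, and that of LALBA was 1890 and 1467 CPM. In sows 1 and 3 these 3 genes rose over the same interval in every case. With 1 library per sow and day this has no replicate check.

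Corrected for exon length, the order of the 4 named milk protein genes and the 2 unnamed genes at 1 d postpartum was resolved only in part. ENSSSCG00000009263 had 102017 ± 86579 CPM per kilobase, CSN2 99041 ± 110886, CSN1S1 79709 ± 51887, ENSSSCG00000028525 51758 ± 1935, CSN3 49639 ± 36282 and LALBA 21535 ± 29405 (mean ± SD, n = 3). Within sows 1, 2 and 3, CSN3 lay above LALBA each time, with 91526, 29398 and 27992 against 55374, 2200 and 7032. CSN1S1 likewise lay above CSN3 in every sow. The other neighbours in this order changed places between sows. At 14 d prepartum CSN1S1 led with 13198 ± 1269 CPM per kilobase, above CSN2 with 1949 ± 959 and CSN3 with 1330 ± 293 in every sow, and LALBA stood at 11.3 ± 10.6.

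**Figure D2:**
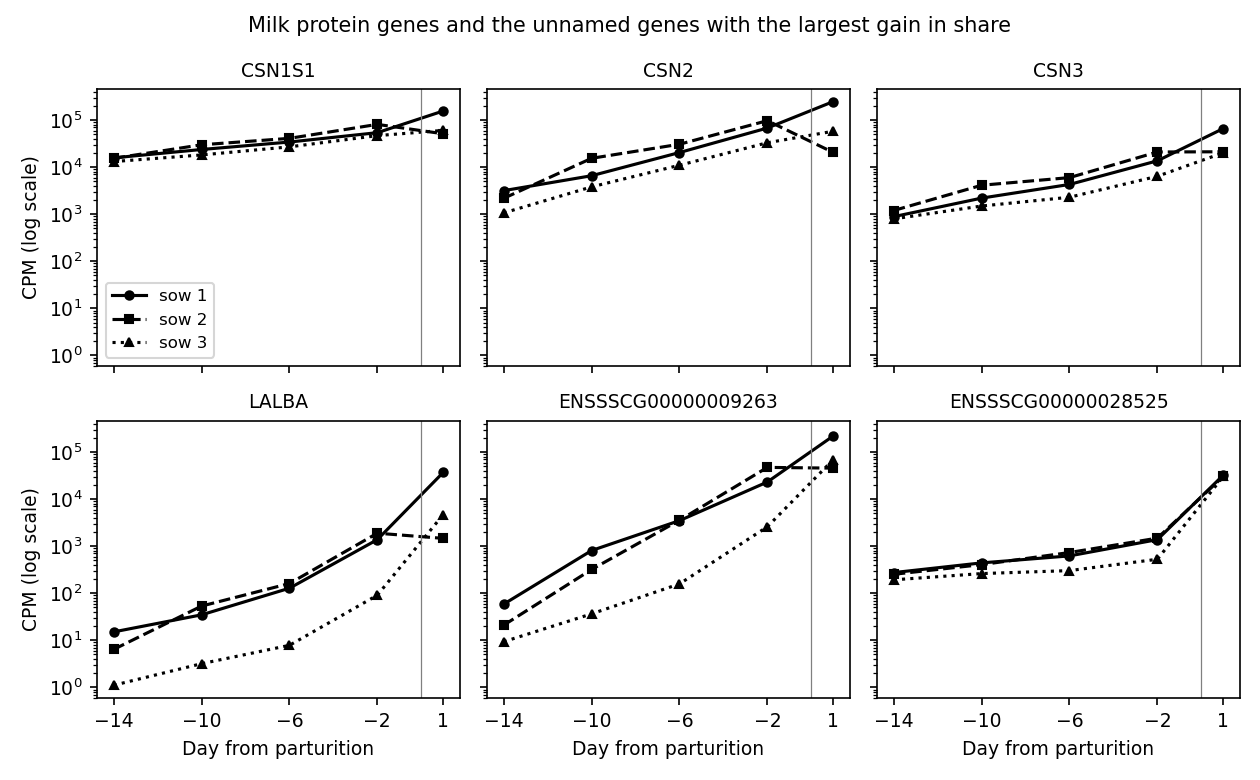
CPM (log scale) of 4 named milk protein genes and of the 2 unnamed genes with the largest gain in share of counts, against the day from parturition (grey line at 0), for 3 sows. The curves of CSN1S1, CSN2 and LALBA in sow 2 end below their value at 2 d prepartum, and that of ENSSSCG00000028525 rose mainly after 2 d prepartum, to 30327 to 32342 CPM.

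Among the other abundant genes some gained and some lost share. The highest gene of all 3 libraries at 14 d prepartum, which has no name in the tables used, held 6.0% to 8.22% of counts then and 7.27% to 8.97% after parturition, so the groups overlapped. Another gene without a name went from 0.0828%, 0.112% and 0.0914% to 0.344%, 1.76% and 1.18%, a mean gain of 0.998 points, above the 0.85 points of LALBA. Genes of the mitochondrial genome held 7.8% ± 0.211 and 7.61% ± 0.926 of counts (exact permutation p = 0.8). In CPM, COX1, a subunit of cytochrome c oxidase, was nevertheless higher at 1 d postpartum, with 39335, 28524 and 27940 against 19500, 16684 and 15132 (log2 fold change 0.9, SE 0.13, edgeR adjusted p = 0.00033). Its share of counts was 2.06% ± 0.2 before and 2.37% ± 0.196 after parturition. The largest losses in share among unnamed genes were those of ENSSSCG00000004489, from 2.15% ± 0.115 to 0.845% ± 0.295, and ENSSSCG00000006350, from 0.587% ± 0.0465 to 0.0739% ± 0.0378. EEF2, the elongation factor that moves the ribosome along the messenger, fell from 0.702% ± 0.0391 to 0.274% ± 0.105.

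Across all tested genes the change was broad. The quasi-likelihood test of edgeR, blocked by sow, identified 4063 DEG among 13503 genes, which is 30.1%. A gene was called a DEG if the p for any change over the 5 time points and the p for these 2 time points were each at most 0.05 after Benjamini-Hochberg adjustment. Of these, 2206 (16.3% of tested genes) were upregulated and 1857 (13.8%) were downregulated at 1 d postpartum, and the median log2 fold change over all tested genes was 0.01. A change of at least 2-fold was seen for 1093 upregulated and 753 downregulated genes, and one of more than 10-fold for 124 and 55. Among all tested genes, 38.9% had groups that did not overlap, and among the called genes 88.5%.

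The number of DEG depended on the libraries, the covariates and the scaling. Without sow 3 the test called 1123 genes, without sow 2 1674 and without sow 1 3860, and with the 6 libraries alone it called 1564. With the RNA integrity number as a covariate over all 15 libraries, 310 genes were called, 146 higher and 164 lower. On total counts without TMM the median of all genes shifted to -0.65 and the split turned to 629 higher and 6222 lower, against 2206 and 1857.

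**Figure D3:**
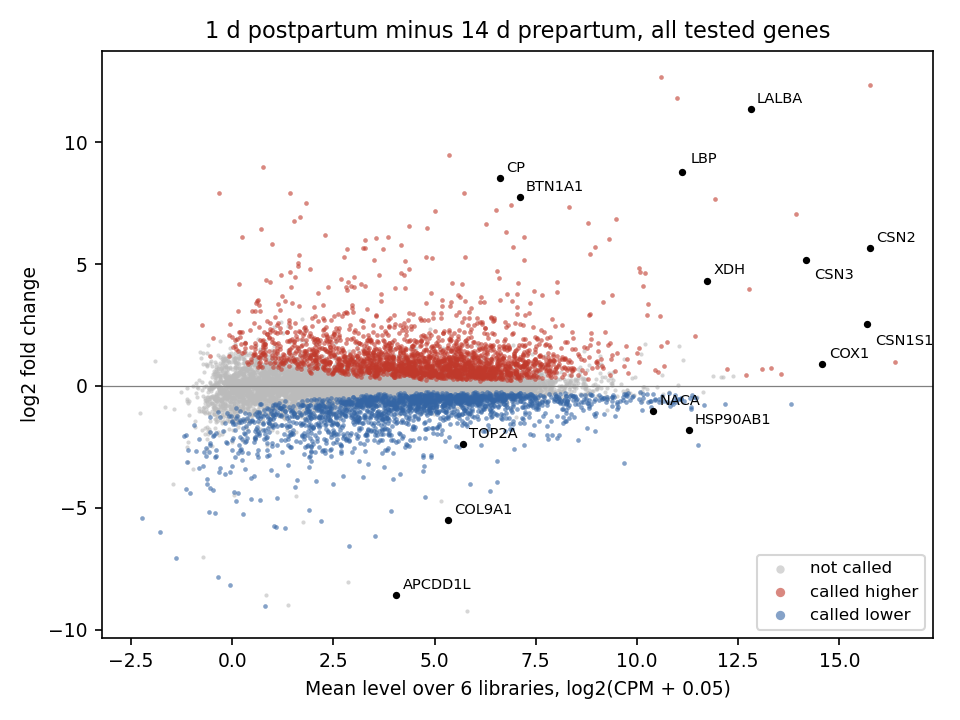
Each of the 13503 tested genes by its mean level over the 6 libraries (log2 of CPM plus a small constant, horizontal axis) and its log2 fold change, 1 d postpartum minus 14 d prepartum (vertical axis), with genes called higher in red and lower in blue. The increases of LALBA, LBP and CSN2 reach high mean levels, while APCDD1L and COL9A1 lie near the middle of the horizontal axis of tested genes or above it.

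LALBA had the largest increase among the genes named by the rule for large changes. This gene encodes the protein that turns galactosyltransferase into lactose synthase. Its level was 15.1, 6.41 and 1.11 CPM in sows 1, 2 and 3 at 14 d prepartum and 36934, 1467 and 4690 CPM at 1 d postpartum (log2 fold change 11.36, SE 1.23, adjusted p = 3.75e-05, edgeR). LBP, which binds bacterial lipopolysaccharide, went from 8.97, 11.9 and 7.66 CPM to 1118, 6581 and 5509 CPM (8.8, SE 0.66). CP, the copper carrier ceruloplasmin, went from 0.321, 0.335 and 0.679 CPM to 15.5, 348 and 219 CPM (8.53, SE 0.97). In LALBA sow 1 was the highest animal after parturition, and in LBP and CP it was the lowest.

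LPO encodes lactoperoxidase, an antibacterial enzyme of milk, and had 262, 23.9 and 29.8 CPM after parturition against at most 0.366 before. BTN1A1, butyrophilin of the milk fat globule membrane, rose from 3.3, 1.21 and 0.194 CPM to 566, 83.4 and 169 CPM (7.74, SE 0.78). CIDEA, which enlarges lipid droplets, rose from 0.962, 0.461 and 0.145 CPM to 122, 14.1 and 31.1 CPM (6.46, SE 0.5). For these genes sow 1 again had the highest value. MT1X, a metal-binding metallothionein, showed the other order, with 20.2, 586 and 264 CPM after parturition and 6.55, 3.35 and 3.88 before (6.12, SE 1.07). The remaining genes of the 10 largest increases were CFAP161 (6.56), the orexin receptor HCRTR1 (6.13) and the keratin KRT39 (6.05), all below 0.7 CPM in every sow before parturition and at 17.0 CPM or more after it.

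Among the largest decreases, APCDD1L had 885, 340 and 915 counts at 14 d prepartum and 1 count in each library of 1 d postpartum. Its level per effective library size was 319-fold higher before parturition, with an exact 95% interval for counting error alone of 109 to 1548. HEPACAM, a cell adhesion gene, had 349, 451 and 181 counts before and 1, 0 and 3 after, a ratio of 110 with an interval of 42.7 to 403. COL9A1, a chain of the cartilage collagen IX, fell from 43.8, 165 and 28.6 CPM to 0.17, 4.95 and 0.657 CPM (log2 fold change -5.51, SE 0.29). CHODL was the most abundant of the group, at 161, 149 and 208 CPM before and 18.2, 2.87 and 16.7 CPM after (-3.93, SE 0.42). The others were ZBED2 (-5.14), TDRD1 (-4.55), SMTNL2 (-4.01), the adenylate kinase AK5 (-3.83), the kinase CAMK1G (-3.72) and the transcription factor MYB (-3.7), which fell from 10.5, 17.8 and 8.92 CPM to 1.02, 0.991 and 0.803 CPM.

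Genes were also grouped into 26 function lists, which are described by their counts and medians and were not tested as sets. The counts below are to be read against 16.3% of all tested genes called higher and 13.8% called lower. They depended strongly on RNA integrity in the fit, as did the calls over all genes. Adding the RNA integrity number left 146 of the 13503 tested genes called higher and 164 lower. With the RNA integrity number as a covariate, the members called were 7 higher of the list of protein entry into the endoplasmic reticulum, 6 higher of the acute phase list, 2 higher of the milk fat list, 1 higher of the cholesterol list and 4 lower of the matrix list, and 0 of the cell cycle, ribosomal protein and interferon lists.

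**Figure D4:**
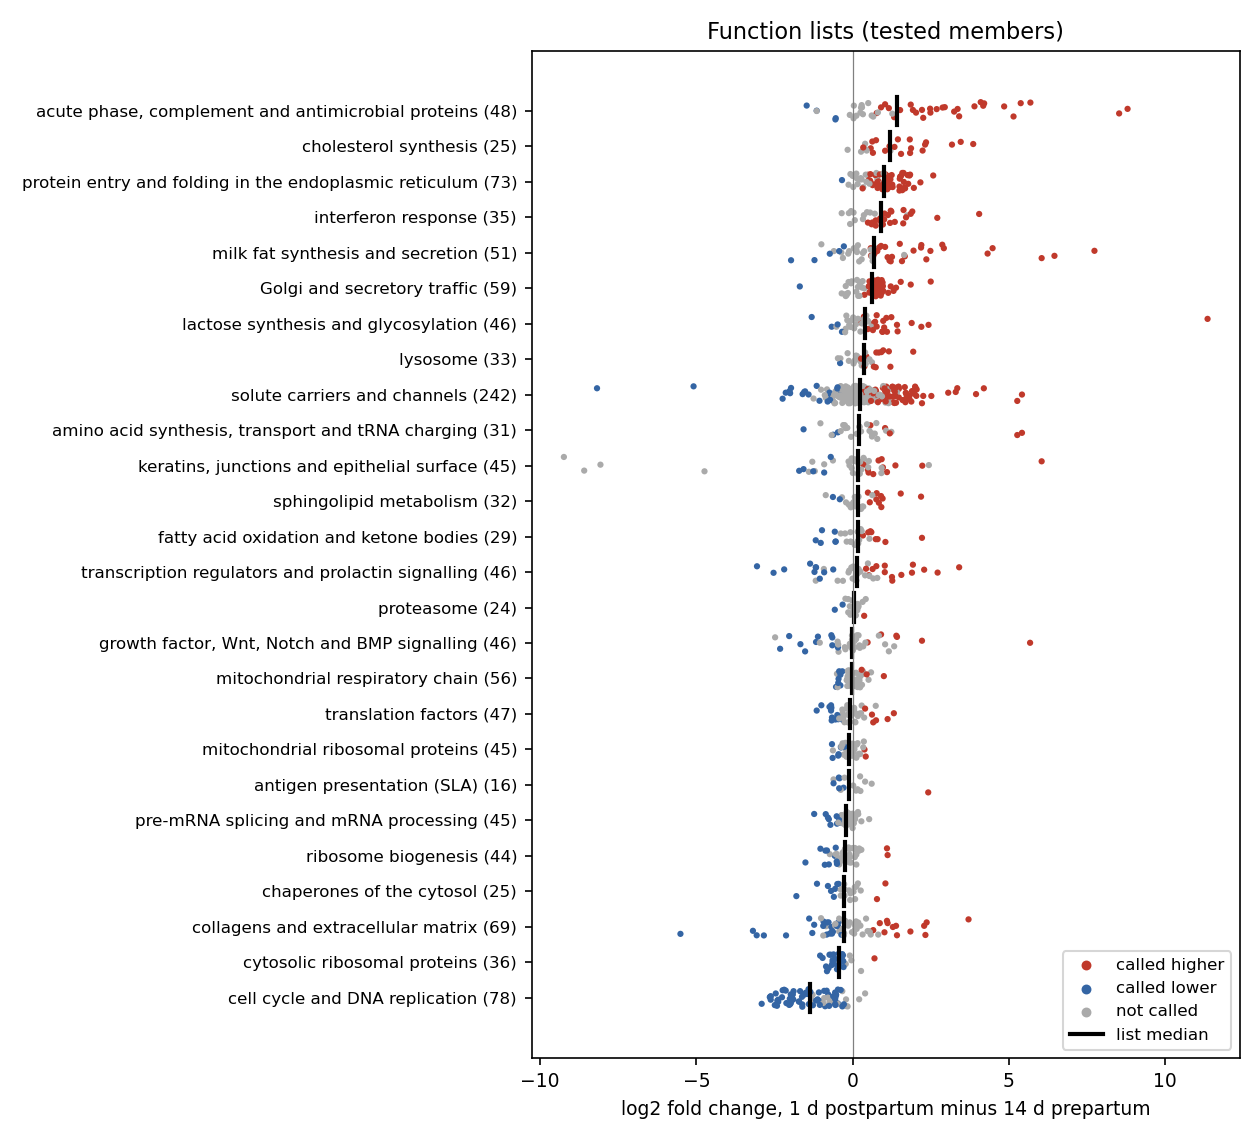
Log2 fold change (1 d postpartum minus 14 d prepartum, horizontal axis) of each tested member of 26 function lists, with the number of tested members in brackets, red for called higher, blue for called lower and grey for not called, and a black bar at the list median. Medians run from -1.37 for cell cycle genes to 1.43 for acute phase genes.

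Milk fat genes were upregulated at several steps. Of 51 tested members of the list of fat synthesis and secretion, 27 rose and 5 fell, with a median log2 fold change of 0.7. XDH, which anchors butyrophilin to the droplet, rose from 429, 411 and 199 CPM to 11206, 3751 and 4431 CPM (4.32, SE 0.47, edgeR adjusted p = 3.82e-05). The long-chain acyl-CoA synthetase ACSL6 rose by 6.05 on the log2 scale and ACSL3 by 2.87. SCD, the delta-9 desaturase, had 203, 247 and 230 CPM before and 5094, 518 and 1003 CPM after (2.92, SE 0.58). ACACA, which makes malonyl-CoA, rose by 2.49, and FASN, the fatty acid synthase, rose by 1.58 with 3646, 476 and 872 CPM after parturition. In FASN the value of sow 2 after parturition was below that of sow 1 before it (517 CPM), so the groups overlapped.

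Glycerolipid enzymes of the same list rose as well, among them GPAT4 (2.2), GPAT3 (1.67) and LPIN1 (1.26). PLIN5, a lipid droplet coat protein, rose from at most 0.293 CPM to 2.72, 8.13 and 5.62 CPM (4.48). PLIN1, the coat protein of fat cell droplets, was called lower, from 4.08, 0.838 and 2.42 CPM to 0.17, 0.495 and 0.877 CPM (-1.97, SE 0.56), but its fold change was 0.54 with the RNA integrity number as a covariate. SCD5, the other desaturase, fell by 1.22. Not called were DGAT1 (0.29), which adds the last acyl chain to triacylglycerol, and the fat globule protein MFGE8 (1.65), whose values of 7539, 656 and 1626 CPM spread widely around the 840 to 1031 CPM before parturition. The 7 adipocyte markers in the files summed to 70.4 to 96.1 CPM before and 180 to 230 CPM after parturition, and 4 of them were called higher, including CIDEA. The part of fat cells in these results was not tested.

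Sterol genes moved together. Of 25 tested cholesterol synthesis genes 19 rose and 0 fell, with a median of 1.21. INSIG1, which retains the sterol sensor in the endoplasmic reticulum, rose from 25, 29.8 and 32.9 CPM to 936, 171 and 364 CPM (3.86, SE 0.43). HMGCS1, at the entry to the pathway, rose from 70.7, 95 and 73.8 CPM to 2497, 188 and 501 CPM (3.46, SE 0.66). SREBF2, the transcription factor of sterol genes, rose by 0.65. Within sows the list median was 1.73 in sow 1, 0.47 in sow 2 and 1.32 in sow 3. With sow 3 left out, 4 members were called higher, where 700 of 13194 tested genes were.

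Fatty acid oxidation was split. Of 29 tested members 8 rose and 6 fell, with a median of 0.16 that turned to -0.53 without TMM. BDH1, an enzyme of ketone bodies, rose by 2.22 and ACADM, the medium-chain acyl-CoA dehydrogenase, by 1.05, while ACADSB (-1.18) and HSDL2 (-1.02) fell. Of 32 sphingolipid genes 10 rose and 2 fell (median 0.17, and -0.48 without TMM). SGMS2, a sphingomyelin synthase, rose from 11.4, 12.7 and 8.09 CPM to 53.4, 44.1 and 43.8 CPM (2.19), and its paralogue SGMS1 fell by 0.41. CERS4, a ceramide synthase, rose by 1.54, and of the ORMDL genes, which restrain ceramide synthesis, ORMDL1 fell by 0.63, ORMDL3 rose by 0.96 and ORMDL2 was not called (0.34).

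The machinery for protein entry into the endoplasmic reticulum rose across its parts. Of 73 tested members 54 rose and 1 fell, with a median of 0.99. In all 3 sows 64 members were higher, as were 3587 of all 13503 tested genes. The lumenal chaperone HSPA5 (BiP) rose from 247, 346 and 275 CPM to 1400, 860 and 738 CPM (1.78, SE 0.24), and the channel subunit SEC61A1 rose by 1.64. DERL3, of the degradation pathway, rose from 5.68, 5.24 and 3.73 CPM to 66.5, 14.5 and 17.4 CPM (2.58, SE 0.38), and SDF2L1 rose by 2.17. Signal peptidase, oligosaccharyltransferase and translocon-associated subunits were called higher too, for example SEC11C (1.52), STT3A (1.25) and SSR3 (1.19). EMC9 was the single member that fell, by 0.34. XBP1, a regulator of secretory cells, was not called (0.54, SE 0.22, edgeR adjusted p = 0.073). The whole list held only 1.01% ± 0.0668 of counts before and 1.23% ± 0.0758 after parturition.

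Golgi and vesicle transport genes followed, with 38 of 59 called higher and 1 lower and a median of 0.61, which became -0.06 without TMM against -0.65 for all genes. KDELR3, a receptor that returns lumenal proteins, rose from 16.5, 18.3 and 19.5 CPM to 159, 82.3 and 80.3 CPM (2.5, SE 0.26), and the cargo receptor LMAN1 rose by 1.86. Coat proteins of both transport directions rose by smaller steps, such as SEC24D (1.54) and COPA (0.9). SYTL3, a synaptotagmin-like protein, fell by 1.69 from 48.6, 18.9 and 34.3 CPM.

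Lactose synthesis and glycosylation genes rose in 21 of 46 cases and fell in 4 (median 0.41, and -0.27 without TMM). Beside LALBA, HK2, a hexokinase, rose from 1.01, 1.59 and 1.84 CPM to 12.6, 4.26 and 8.18 CPM (2.43, SE 0.45), and GFPT1, which starts hexosamine synthesis, rose by 2.2. UGP2, which forms UDP-glucose, rose by 1.24, and SLC35A2, which carries UDP-galactose into the Golgi, by 1.08. PMM1, a phosphomannomutase, fell from 218, 131 and 147 CPM to 35.7, 99.8 and 60.0 CPM (-1.31), and EOGT fell by 0.67.

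Among amino acid genes, 2 transporters stood far from the rest. SLC6A14, a transporter of neutral and basic amino acids, rose from 28.8, 23.7 and 13.4 CPM to 1658, 530 and 516 CPM (5.42, SE 0.67), and SLC7A4 rose from 1.92, 1.26 and 1.26 CPM to 10.7, 65.6 and 102 CPM (5.27, SE 0.68). The whole list had 5 of 31 members called higher and 3 lower, with a median of 0.22 that was 0.87 in sow 1, -0.03 in sow 2 and 0.01 in sow 3. PSAT1, of serine synthesis, fell from 71.4, 94.0 and 72.1 CPM to 57.5, 16.4 and 15.4 CPM (-1.57).

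The broader list of solute carriers and channels had 242 tested members, of which 69 rose and 21 fell (median 0.25, and -0.43 without TMM). Increases included SLC13A1 (4.2), SLC30A2 (2.52), which carries zinc, and SLC39A8 (2.0), another metal carrier. SLC6A3, the dopamine transporter, had 104, 163 and 206 counts before and 0, 3 and 4 counts after parturition. KCNV1, a potassium channel subunit, had 0, 88 and 38 counts before and 0 in all libraries after, a level at least 18.8-fold lower when 3 counts are allowed over the group, and sow 1 gave no information on it. The iodide transporter SLC5A5 (-2.24) and the glucose transporter SLC5A1 (-1.6) fell.

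Immune proteins of the gland formed the list with the highest median. Of 48 tested acute phase, complement and antimicrobial genes 29 rose and 4 fell, with a median of 1.43. C3, the central complement protein, rose from 93.5, 36.8 and 95.5 CPM to 250, 3061 and 2846 CPM (4.85, SE 0.77). LCN2, which binds bacterial iron carriers, had 15.7, 15.4 and 15.6 CPM before and 16.5, 1704 and 1203 CPM after parturition (5.69, SE 1.03). In sow 1 LCN2 was therefore nearly level, and in sows 2 and 3 it was many times higher. CD14, the co-receptor for lipopolysaccharide, showed a similar order with 23.3, 474 and 377 CPM after and 5.63 to 8.05 CPM before (5.15, SE 0.68).

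Both PIGR and TLR2 were highest in sow 1. PIGR, which carries immunoglobulin A across the epithelium, rose from 25.6, 27.2 and 17.9 CPM to 480, 100 and 136 CPM (3.25, SE 0.45), and TLR2, a receptor for bacterial lipoproteins, rose from 30.1, 35.1 and 26.3 CPM to 319, 203 and 172 CPM (2.95). LTF, lactoferrin, was abundant throughout, at 1000, 935 and 1198 CPM before and 3997, 7128 and 2387 CPM after (2.03, SE 0.3). LYZ, lysozyme, fell from 60.9, 24.7 and 35.6 CPM to 9.01, 12.8 and 19.6 CPM (-1.47), and C8G fell by 1.15. The leukocyte markers did not rise as a group, with a summed level of 460 to 512 CPM before and 389 to 457 CPM after, and of 20 tested 1 was called higher and 5 lower.

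Interferon response genes rose in 23 of 35 cases and fell in 0, with a median of 0.91. CXCL11, a chemokine, had between 0.68 CPM (sow 1) and 35.2 CPM (sow 3) after and 0.503 to 1.02 CPM before parturition (4.05, SE 0.79). RSAD2, an antiviral enzyme, rose from 1.47, 1.38 and 0.969 CPM to 3.06, 5.55 and 16.3 CPM (2.71, SE 0.56). The list median within sows was 0.11, 0.79 and 1.42, so it was close to 0 in sow 1. Without sow 2 only 3 members were called and without sow 3 only 5, where 931 and 700 of all tested genes were called higher. At 6 d prepartum the list median against 14 d prepartum was 0.88, with 8 members called higher and 56 of all 13503 tested genes. At 2 d prepartum it was 0.11, with 0 members called and 684 of all tested genes called higher. Both used the same libraries of 14 d prepartum. Antigen presentation genes had 5 of 16 members called lower and 1 higher (median -0.12). Without the library of sow 1 at 1 d postpartum 4 were called lower and 5 higher, where 2443 and 2605 of 13469 tested genes were. The class II genes SLA-DQA (-0.61) and SLA-DRB1 (-0.44) fell, and CD83, a marker of mature antigen-presenting cells, rose from 3.43, 2.81 and 2.38 CPM to 2.72, 20.9 and 23.9 CPM (2.42, SE 0.5), with no increase in sow 1.

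Cell cycle genes had the lowest median of the 26 lists. Of 78 tested members 64 fell and 0 rose, with a median of -1.37. In all 3 sows 66 members were lower, as were 3569 of all 13503 tested genes. TTK, a kinase of the spindle checkpoint, fell from 4.03, 8.13 and 7.13 CPM to 1.53, 0.198 and 1.02 CPM (-2.91, SE 0.45, edgeR adjusted p = 0.000387). CCNB3 fell by 2.65, and TOP2A, the topoisomerase of dividing cells, from 61.0, 112 and 86.5 CPM to 29.9, 6.74 and 14.8 CPM (-2.38, SE 0.4). Replication licensing genes fell as well, such as MCM2 (-2.14) and CDT1 (-1.96). CCNE1 (0.21) and CKS1B (-0.2) were among the 14 members that were not called. In each sow the median was negative, at -0.63 in sow 1, -2.07 in sow 2 and -1.43 in sow 3. With sow 3 left out, 8 members were called lower, where 423 of 13194 tested genes were. The list held 0.247% ± 0.0436 of counts before and 0.0854% ± 0.0137 after parturition.

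Genes for the ribosome itself fell by small steps. Of 36 named cytosolic ribosomal protein genes and nascent-chain factors tested, 30 fell and 1 rose, with a median of -0.45. The list median within sows was -0.62 in sow 1, -0.15 in sow 2 and -0.58 in sow 3. RPS4X fell from 4411, 3571 and 4253 CPM to 2235, 2707 and 2235 CPM (-0.77, SE 0.13). The nascent-chain factors NACA (-1.04) and BTF3 (-0.96) had the largest decreases, and FAU, a ribosomal protein fused to a ubiquitin-like one, rose by 0.7. The share of counts of these 36 genes, which leaves out members without a name and is not corrected by TMM, went from 6.28%, 5.69% and 6.16% to 1.8%, 3.48% and 2.8%. Without sow 3 none of the decreases was called (0 of 36), where 423 of 13194 tested genes were called lower. With the 6 libraries alone 3 were called, where 669 of 12990 tested genes were.

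Translation factors had 13 of 47 members called lower and 6 higher, with a median of -0.08. EIF3E (-1.15) and EEF1B2 (-1.0) fell, while 2 genes that restrain translation, EEF2K (1.32) and EIF4EBP1 (1.12), rose. EEF2K, the kinase that inactivates EEF2, went from 129, 159 and 128 CPM to 440, 367 and 245 CPM. In ribosome biogenesis 10 of 44 fell and 2 rose (median -0.25), with MYC, the growth regulator, falling from 233, 202 and 172 CPM to 103, 44.9 and 69.2 CPM (-1.51, SE 0.21) and NOP56 by 1.03, and with NOP9 (1.12) and BYSL (1.1) rising. Splicing genes fell in 9 of 45 cases and rose in 0 (median -0.21), led by HNRNPA1, from 919, 951 and 1068 CPM to 361, 423 and 466 CPM (-1.23, SE 0.1).

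Cytosolic chaperones contrasted with those of the endoplasmic reticulum. Of 25 tested, 8 fell and 2 rose, with a median of -0.26. HSP90AB1 fell from 3874, 3504 and 4215 CPM to 1113, 1159 and 1033 CPM (-1.8, SE 0.14, edgeR adjusted p = 4.23e-06), and HSF4, a heat shock factor, fell by 1.14. Among the CCT subunits, which fold actin and tubulin, CCT2 (-0.79) and CCT5 (-0.69) fell. The small heat shock protein HSPB8 (1.05) and its partner BAG3 (0.78) rose.

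Few mitochondrial and proteasome genes were called. Of 56 nuclear respiratory chain genes 3 rose and 7 fell, with a median of -0.02. ATP5ME, of ATP synthase, rose from 51.4, 53.7 and 49.2 CPM to 115, 91.5 and 103 CPM (1.0), and NDUFA11 fell by 0.53. Of 45 mitochondrial ribosomal proteins 2 rose and 6 fell (median -0.11), among them MRPS26 (-0.66). Of 24 proteasome genes 1 rose and 2 fell (median 0.06), and PSMG4, an assembly factor, fell by 0.57. These shares called lie below the 30.1% of all tested genes, but the calls of the 2 mitochondrial lists depended on 1 library. Without the library of sow 1 at 1 d postpartum, 21 respiratory chain genes and 13 mitochondrial ribosomal proteins were called lower, with 2 of each list called higher. Of the proteasome genes 4 were called lower and 0 higher. In that fit 2605 of 13469 tested genes were called higher and 2443 lower.

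The extracellular matrix changed in both directions. Of 69 tested members 22 fell and 13 rose, with a median of -0.27. Beside COL9A1, the cartilage-type collagen genes COL2A1 (-2.84) and COL11A1 (-2.13) fell, and COL21A1 fell from 11, 19.4 and 24.8 CPM to 2.55, 1.29 and 2.48 CPM (-3.19, SE 0.28). Of the abundant fibrillar collagens, COL3A1 fell from 2183, 3459 and 4538 CPM to 1913, 1210 and 2192 CPM (-0.93, SE 0.21), with groups that overlapped between sows. CCN2, a matricellular growth regulator, rose from 35.2, 27.8 and 22.2 CPM to 434, 384 and 301 CPM (3.71, SE 0.44), and TNC, tenascin C, from 15.2, 20.6 and 30.1 CPM to 26.0, 121 and 245 CPM (2.37). LOX, which cross-links collagen, rose by 1.85. The 12 fibroblast markers summed to 4229 to 7905 CPM before and 2334 to 4290 CPM after parturition (exact permutation p = 0.2), and their part in these results was not tested.

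Several markers of contractile cells rose beside these genes. The 5 myoepithelial markers in the files summed to 1321 to 1407 CPM before and 1828 to 2501 CPM after parturition, and CNN1 (1.56), the oxytocin receptor OXTR (1.58) and ACTA2 (0.57) were called higher, while TP63 (-0.9) was called lower. Of the 3 skeletal muscle markers in the files MYL1 was at 0 in all 6 libraries and another was not called (log2 fold change -0.20). ACTA1 rose from 1.42 to 1.5 CPM to 7.99, 10.9 and 23.1 CPM (3.32, SE 0.49). The 12 endothelial markers summed to 664 to 753 CPM and 594 to 722 CPM.

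Growth factor and signalling genes were split, with 10 of 46 called lower, 6 higher and a median of -0.02. EGF, epidermal growth factor and a component of colostrum, rose from at most 0.63 CPM to 39.1, 7.04 and 9.35 CPM (5.68, SE 0.88). IGFBP5, which binds insulin-like growth factors, rose from 18.8, 16.9 and 24.0 CPM to 29.6, 85.0 and 179 CPM (2.22). TNFSF11 (RANKL), through which progesterone drives mammary growth, fell from 9.25, 7.29 and 12.8 CPM to 1.7, 2.38 and 1.83 CPM (-2.32, SE 0.34), and FGFR4 had 14, 32 and 27 counts before and 1, 3 and 4 after. IGF1 was at 2.88, 4.82 and 5.72 CPM before and 3.23, 4.86 and 4.89 CPM after (-0.02, SE 0.23).

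Prolactin signalling genes were not upregulated together. PRLR, the prolactin receptor, fell from 11.2, 15.0 and 20.6 CPM to 6.63, 6.44 and 7.82 CPM (-1.18, SE 0.25), and STAT5A from 289, 263 and 261 CPM to 195, 189 and 147 CPM (-0.62, SE 0.12). JAK2, the kinase between them, was called higher at 0.52, a value that became -0.15 without TMM, and SOCS6, of the family of signalling suppressors, at 0.43, which became -0.22. STAT5B (-0.31), ELF5 (0.13) and ESR1 (-0.01) were not called. PGR, the progesterone receptor, fell from 2.56, 1.88 and 2.13 CPM to 1.53, 0.694 and 0.803 CPM (-1.22, SE 0.28).

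The whole list of transcription regulators and prolactin signalling had 14 of 46 members called higher and 10 lower (median 0.14). Largest among the increases was CEBPD, a factor of the acute phase response, from 24.3, 26.3 and 30.9 CPM to 136, 430 and 342 CPM (3.41, SE 0.28). STAT3, which acts upstream of many acute phase genes, rose from 70.2, 69.2 and 90.5 CPM to 185, 369 and 333 CPM (1.93, SE 0.2). In both genes sow 1 had the lowest value after parturition, still above all values before it. FOS (2.72), CITED2 (2.29), NFIL3 (1.9), NCOA2 (1.56), SIX4 (1.27), MAFF (1.26), EPAS1 (1.03), TEAD4 (1.03) and TFAP2A (0.76) rose too, and CREB3 (0.64) did so except without TMM, where its value was -0.02.

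The members of this list called lower included TFAP2C, CITED1 and FOXA1. TFAP2C fell from 367, 326 and 405 CPM to 55.6, 83.8 and 101 CPM (-2.19, SE 0.21). CITED1, a transcription co-regulator of ductal growth, fell from 6.73, 6.79 and 6.49 CPM to 1.53, 0.396 and 0.73 CPM (-3.06, SE 0.32). FOXA1, a factor of hormone-sensing luminal cells, fell by 2.53, CEBPA by 1.36, ID4 by 1.17, NR2F2 by 1.05 and TBX3 by 0.91. None of these 7 genes overlapped between the groups, as was also so for 88.5% of all called genes.

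Lysosomal and epithelial surface genes complete the lists. Of 33 lysosomal genes 12 rose and 1 fell (median 0.36, and -0.33 without TMM), with the protease CTSV rising from 212, 176 and 177 CPM to 513, 1083 and 646 CPM (1.94), ENTPD4 rising by 1.21 and LAMP2 falling by 0.4. Of 45 keratin, junction and surface genes 11 rose and 5 fell (median 0.18). The claudin CLDN23 rose by 2.23 and CLDN6 fell by 1.71, as did ANXA9 by 1.57. The luminal keratins KRT8 (0.13) and KRT18 (0.23) were not called. Nor were KRT1, KRT10, KRT73 and KRT77, whose fitted values of -9.24 to -4.74 rested on the library of sow 2 at 14 d prepartum.

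The sows differed in how far each function moved. Sow 1 had the largest median changes for protein entry into the endoplasmic reticulum (1.47, against 0.74 in sow 2 and 0.66 in sow 3) and for cholesterol synthesis. It had the smallest for acute phase genes (0.7, against 1.79 and 1.31), for interferon genes and for cell cycle genes. Milk fat genes had medians of 0.77, 0.68 and 0.66, but their summed level went from 5095, 4676 and 4429 CPM to 42625, 9384 and 12976 CPM, most in sow 1. With 1 library per sow and time point these differences between sows have no replicate check.

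**Figure D5:**
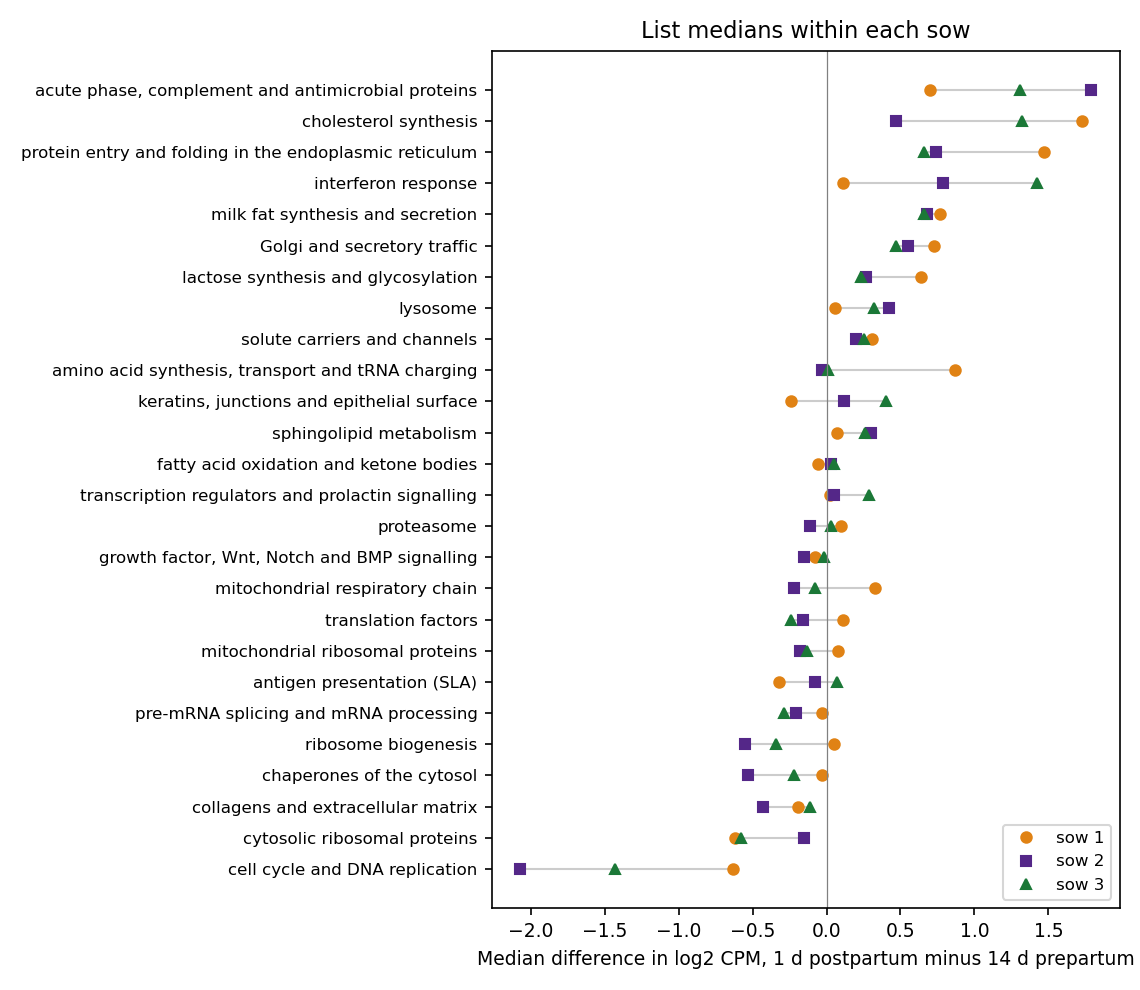
Median over the tested members of each function list of the difference in log2 CPM, 1 d postpartum minus 14 d prepartum (horizontal axis), for sow 1 (circles), sow 2 (squares) and sow 3 (triangles). The cell cycle medians run from -2.07 in sow 2 to -0.63 in sow 1, and those of acute phase genes from 0.7 in sow 1 to 1.79 in sow 2.

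The functions also differed in when they moved. The following values compare 2 d prepartum with 14 d prepartum and then 1 d postpartum with 2 d prepartum in the same fit, and both share the libraries of 2 d prepartum. For reference, 5.07% of tested genes were called higher and 3.61% lower in the first comparison, and 10.6% and 9.51% in the second. Cell cycle genes had medians of -0.14 and -1.24, with 1 and 59 of 78 members called lower. Acute phase genes had medians of -0.05 and 1.14, with 6 and 27 of 48 called higher. For ribosomal proteins the medians were 0.19 and -0.66, with 0 and 32 of 36 called lower. The list of protein entry into the endoplasmic reticulum moved in both, with medians of 0.56 and 0.44 and 23 and 24 of 73 called higher, as did milk fat genes with medians of 0.4 and 0.42. Matrix genes had medians of -0.36 and 0.17, with 0 of 69 called higher and 14 lower in the first comparison and 14 higher and 10 lower in the second.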

How the data were processed

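Mammary biopsies of 3 sows gave stranded messenger RNA libraries that were read from one end. The authors trimmed reads with Trimmomatic 0.33, aligned them to Sscrofa10.2 with STAR 2.5.1b (submitters' processing notes) and deposited raw counts per Ensembl gene from featureCounts 1.5.0, counted on exons by strand without multimapping reads, so genes with near-identical copies (metallothioneins, actins, keratins, SLA genes) are uncertain. The Methods name the RefSeq annotation instead. The sow of each library was taken from the study's sequencing summary by the exact match of total counts. Same-sow libraries deviated together from their time means (all 30 pairs correlated, lowest 0.103, mean 0.396). Any 2 libraries of a time point, different sows by that summary but not by the labels, differed in at least 16072 genes. They are therefore not copies of each other. The p-values of edgeR measure the spread that is left after time and sow are fitted, over 8 residual degrees of freedom.

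Genes with at least 1 CPM in at least 3 libraries were kept (13503 of 25322). Counts were fitted in edgeR 4.0.16 (R 4.3.3) with TMM, time and sow over all 15 libraries, with glmQLFit and glmQLFTest, and p-values were adjusted by Benjamini-Hochberg over all tested genes. The standard error is the absolute log2 fold change divided by the square root of F, and every adjusted p given is that of the comparison. CPM uses TMM factors, and differences within sows use log2 CPM with a prior count of 2. Permutation tests are exact and two-sided, and they leave out the pairing by sow. Intervals cover counting error only. Gene names came from the reference table (11747), the study's table (292) and text (1) and RefSeq (49), and 4173 tested genes stayed without a name. The named genes are the 10 largest increases and decreases (mean of at least 5 CPM, same direction in 3 sows), the 2 largest called in each direction per list with other members that show its spread (picked after their values were seen), called transcription regulators and the highest genes. The members, lists and rule were chosen with earlier results of these data known. Alternatives (limma-voom, DESeq2, RLE, no TMM, other filters, thinning with seed 20, libraries or sows left out) are given in the closing section. Scripts were tested on simulated data.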

Additional observations from a re-analysis of the deposited data

How the results depend on the processing

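Of 13503 tested genes 4063 were called, 2206 higher and 1857 lower. The count moved by more than 1.5 times with the RNA integrity number as a covariate (310 genes, 146 higher and 164 lower), with a log2 fold change of at least 1 (1846, 1093 and 753), with the 6 libraries alone (1564, 895 and 669), without TMM (6851, 629 and 6222), without sow 2 (1674, 931 and 743) and without sow 3 (1123, 700 and 423). Fewer genes are called with a fold threshold by construction, and for the other settings the cause was not tested. Leaving out single libraries gave 2939 to 5048 genes, 1628 to 2605 higher and 1311 to 2443 lower. DESeq2 called 4832, limma-voom 3923, RLE normalization 4056, TMM without the highest genes 4083, counts thinned to equal depth 3748, no filter 3957, a filter on all 15 libraries 3594 and the comparison alone 5280. The sow pairs the libraries, and with no replicate block 3203 genes were called. That fit kept 78.1% of the calls of the blocked fit.

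The share on the 10 highest genes rose by 14.3 to 26.0 points with single libraries left out, and the number of genes holding 50% of counts changed by -284 to -229. The share on the highest gene alone changed by 3.06 points (exact permutation p = 0.2). The number of genes changed by -24 for 25% of counts, by -998 for 75%, and by -343 for 50% without the mitochondrial genome. Detected genes at equal depth changed by -930 to -416. Without TMM the list medians turned to -0.53 (fatty acid oxidation), -0.48 (sphingolipids), -0.06 (Golgi), -0.27 (lactose and glycosylation), -0.43 (solute carriers) and -0.33 (lysosome), against -0.65 for all genes. Without TMM the log2 fold changes of UQCR10 (-0.24), MRPL24 (-0.26), MRPL13 (-0.26), PSMD3 (-0.29), SOCS6 (-0.22), JAK2 (-0.15), CREB3 (-0.02), COX3 (-0.21) and CYTB (-0.25) turned negative, and with the RNA integrity number PLIN1 turned to 0.54. Of the values of single genes under alternatives, 2216 kept direction and call, 414 lost the call, 3 gained it and 10 changed sign. Genes near 1 CPM are limited by depth.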

Other observations

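The genes called higher held 26.2% ± 1.48 of counts 14 d before parturition and 59.7% ± 9.06 on the day after it, and those called lower held 30.9% ± 0.853 and 12% ± 3.3 (SD, n = 3). Apart from the 17 highest genes, the genes called higher held 11.2%, 11.6% and 11.4% of counts in sows 1, 2 and 3 before parturition and 14.7%, 21.5% and 19.9% after it. These shares use the comparison that chose the genes and are a description. As a share of all counts, the gain outside the 17 highest genes was 3.54 points in sow 1, 9.92 in sow 2 and 8.51 in sow 3. Those 17 genes held 56.5%, 34.2% and 37.2% of counts after parturition, so least was left for other genes in sow 1. These gains are therefore not comparable between sows as a measure of how far the genes moved.

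Genes outside the lists also differed between sows after parturition. SOD2, the mitochondrial superoxide dismutase, held 0.022%, 0.0269% and 0.0235% of counts before and 0.0115%, 0.279% and 0.304% after. CHI3L1, a secreted chitinase-like protein, held 0.018%, 0.0117% and 0.0125% before and 0.00369%, 0.236% and 0.327% after. In CPM, SOD2 had 191, 218 and 192 before and 211, 3160 and 3492 after parturition, and CHI3L1 had 156, 94.8 and 102 before and 67.7, 2670 and 3765 after. Sows 2 and 3 were higher after parturition on both scales, and sow 1 was lower in CHI3L1 on both but in SOD2 only by share. The genes were picked after their values were seen.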
